A study of Drosophila melanogaster with 24 samples.

Results

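The transcriptomes of single *Drosophila* gastrulae lacking *Acf* were compared with wild type after zygotic genome activation (ZGA). The comparison covered the 9448 protein-coding genes with 0 counts in fewer than 50% of the 12 Stage 8 embryos, out of 17370 genes in the count table, of which 13728 are annotated as protein-coding. Wild type was the Oregon-R strain (*OrR*, 6 embryos). The mutant was *AcfC* (6 embryos), a CRISPR/Cas9 deletion that removes most of the *Acf* gene but leaves its untranslated ends, with a fluorescent eye marker cassette used for selection. The deletion was made in a *yw* strain carrying Cas9 and a *lig4* mutation, passed through *w1118* and *yw*, and then backcrossed to *OrR* for 8 generations. Both groups were hand staged at Bownes Stage 8, at around 4 h of development, when the germ band extends. The strain rests on a single engineered allele, and sequence linked to it may differ from *OrR*. Each library came from 1 whole embryo, so fewer cells of a type and less RNA per cell cannot be told apart.

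ACF1, the product of *Acf*, joins the ATPase ISWI in the nucleosome remodeling complexes ACF and CHRAC, which slide nucleosomes and space them into regular arrays. Before ZGA the embryo lives on RNA laid down by the mother. Around ZGA much of this RNA is degraded while the embryo's own genes are switched on, and by gastrulation the neuroectoderm begins to release neural stem cells (neuroblasts) through Notch signaling. Genes that were called below therefore fall into RNAs inherited from the mother, RNAs made by the embryo, and RNAs with both sources.

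The deletion was directed by a pair of guide RNAs, shown because they define the allele. They are written 5′ to 3′ in lower case with nothing marked. Both were designed against *Acf* (FBgn0027620, 3R from 31793981 to 31799799 on the plus strand of BDGP6).
Acf1_crispr_LHS6: ttagcgcagcgtccacctaa
Acf1_crispr_RHS2: gggcgcctaccagctaaacg
The left guide was made for the 5′ end of the gene and the right guide for its 3′ end.

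*Acf* had 460 to 490 CPM (median 482) in wild type and 40.3 to 64.2 CPM (median 47.3) in *AcfC*. The groups did not overlap, and the reads that remain lie in a gene whose ends were kept and which shares exon sequence with *CG42233*. CPM are counts scaled to a common library size (counts-per-million) over the tested genes, after trimmed mean of M-values (TMM) normalization. The other subunits of the complexes did not pass the test. *Iswi*, the shared ATPase, had a log2 fold change of 0.12 (edgeR quasi-likelihood test, Benjamini-Hochberg adjusted p = 0.207), and the small CHRAC subunits, *Chrac-14* and *Chrac-16*, had −0.05 (adjusted p = 0.837) and −0.0007 (adjusted p = 0.998).

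The embryos held 4213692 to 11614741 counts, with 2030997 to 5689678 of them on protein-coding genes. Precision is lowest in *AcfC* embryo 4, the shallowest. Genes were called at an adjusted p under 0.1, which gave 404 genes (4.28% of those tested), 210 of them higher (2.22%) and 194 lower (2.05%) in *AcfC*, with a median log2 fold change over all genes of 0.01. Levels of all 6 *AcfC* embryos lay above those of all 6 wild-type embryos for 112 genes (1.19%) and below for 119 (1.26%). *Sxl*, the female switch gene, and *msl-2*, which male embryos use for dosage compensation, split each group alike. 4 wild-type and 4 *AcfC* embryos had 1120 to 1328 CPM of *Sxl* with 54.0 to 81.9 of *msl-2*, whereas 2 of each group had 306 to 409 and 274 to 333. *AcfC* embryos 5 and 6 were farthest from wild type in 57 and 91 of the 210 higher genes and in 51 and 58 of the 194 lower genes. Without these 2 embryos 261 genes were called (2.78%), 142 higher (1.51%) and 119 lower (1.27%), and such counts are given beside the groups below. Both had high *Sxl* (1318 and 1120 CPM), so leaving them out also unbalances the sexes between the groups. Of 1582 X-linked genes 9 were then higher and 23 lower, against 20 and 17 of 1597 with all embryos. With the *Sxl* level as a covariate 282 genes were higher (2.98%) and 233 lower (2.47%), with 7, 3, 6, 3 and 10 calls in the neuroectoderm, Enhancer of split, matrix, piRNA and transcription lists described below, as many as without it. With the level of the *roX* RNAs of dosage compensation as a covariate 304 genes were called (3.22%), 174 higher (1.84%) and 130 lower (1.38%), and these lists had 6, 0, 5, 3 and 7 calls. Among embryos with high *Sxl*, the *roX* level was 1670 to 2035 CPM in wild type and 2143 to 3358 in *AcfC*. Among those with low *Sxl* it was 1428 and 1649 in wild type and 1426 and 1590 in *AcfC*. This covariate is therefore not independent of genotype and may take up part of its effect. With the replicate number in the model 252 genes were called (2.67%), 129 higher (1.37%) and 123 lower (1.30%), and the lists had 6, 2, 3, 3 and 6 calls. The marker genes of the stage were present, with pair-rule genes summing to 1350 to 2285 CPM in wild type and 1026 to 2353 in *AcfC*, and mesoderm genes to 2502 to 3383 and 2973 to 5386.

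**Figure D1:**
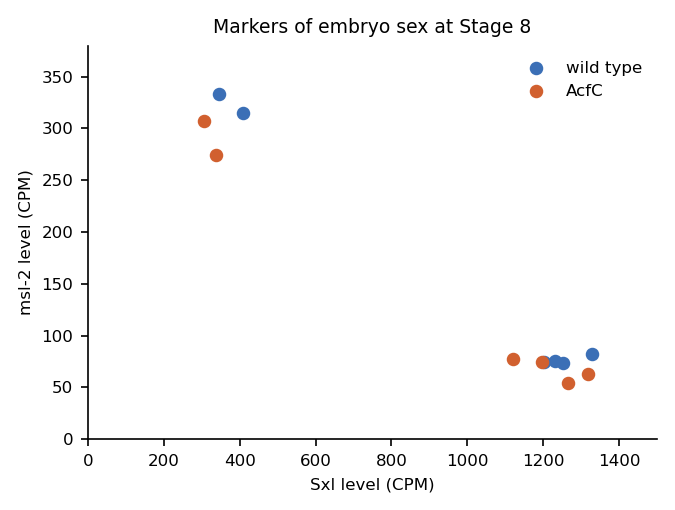
Level of *msl-2* against *Sxl* in each Stage 8 embryo (CPM, 1 point per embryo, wild type blue and *AcfC* orange). The 8 embryos with *Sxl* over 1000 and the 4 with *Sxl* under 500 include both groups in equal number.

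Of 23 tested genes of the neuroectoderm and of neuroblasts, 7 rose in *AcfC* gastrulae, 16 were not called and none fell, against 2.22% of all genes that rose, and the median log2 fold change was 0.50, with 22 of 23 values above 0. Without *AcfC* embryos 5 and 6, 5 rose (1.51% of all genes did) and the median was 0.34. A median above 0 was not particular to this list. Lists and families without any call had medians from −0.15 (9 cellularization genes) to 0.74 (8 differentiated muscle genes). Of 16 mesoderm genes, none of them called, 15 were above 0. *D* (*Dichaete*, 3L), a Sox-domain factor of the early neuroectoderm, had 186 to 260 CPM (median 213) in wild type and 281 to 430 (median 298) in *AcfC*. The groups did not overlap, and embryo 5 was highest. The log2 fold change of *D* was 0.59 (standard error 0.12, edgeR adjusted p = 0.0196).

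*sca* (*scabrous*, 2R), a secreted protein that acts with Notch in choosing neural precursors, had 534 to 779 CPM (median 601) in wild type and 712 to 1037 (median 892) in *AcfC*, with the highest wild-type embryo inside the *AcfC* range (log2 fold change 0.52, standard error 0.11, edgeR adjusted p = 0.0206). *vn* (*vein*, 3L), a ligand of the EGF receptor that patterns the ventral neuroectoderm, went from a median of 90.7 CPM to 138 (log2 fold change 0.65, edgeR adjusted p = 0.0442). *ind*, the homeobox gene of the intermediate neural column, went from a median of 31.2 to 43.9 CPM (0.47 on the log2 scale, adjusted p = 0.093 from edgeR). The groups of *sca*, *vn* and *ind* overlapped.

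3 of the 7 genes, *wor*, *ase* and *scrt*, were low and uneven. *wor* (*worniu*), a Snail-family factor of neuroblasts, had at most 1 count in any wild-type embryo, while *AcfC* embryos 3 and 6 held 57 and 138 counts (9.76 and 47.9 CPM) and the other 4 at most 2 counts. The mean of *wor* was at least 13.4-fold higher in *AcfC* than a floor of 3 counts per wild-type embryo (edgeR adjusted p = 0.0612), yet the groups overlapped, and the gene was called in only 5 of 12 fits that left out 1 embryo, not without *AcfC* embryo 6 nor without any single wild-type embryo. *ase* (*asense*), a proneural factor of neuroblasts, reached 1.60 CPM in wild type and ranged from 0.50 to 20.8 in *AcfC* (log2 fold change 3.22, edgeR adjusted p = 0.0743). *scrt* (*scratch*), which promotes neuronal fate, ranged from 1.16 to 9.83 and from 2.52 to 92.1 CPM (log2 fold change 2.34, edgeR adjusted p = 0.0838). All 3 were highest in *AcfC* embryo 6. *ase*, *scrt* and *ind* lie outside the rule for named genes and were picked after their values were seen. With 1 embryo left out in turn, *ase* was called in 5 of 12 fits (log2 fold change 2.30 to 3.90), *scrt* in 4 (1.44 to 2.63) and *ind* in 2 (0.40 to 0.54). Neither *ase* nor *scrt* was called without *AcfC* embryo 6. The genes of differentiated neurons, which mark later stages, gave no call among 10 tested, and their summed level was 601 to 689 CPM in wild type and 579 to 882 in *AcfC*, with embryo 5 highest. Whether the embryos differed in age within the stage was not tested.

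Notch target genes showed the same unevenness. Of 15 tested Enhancer of split and Bearded genes, 3 rose and none fell (20.0% called, against 4.28% of all genes). In this list 13 had a log2 fold change above 0 (median 0.69). *E(spl)mgamma-HLH*, a basic helix-loop-helix repressor induced by Notch, had 0.996 to 8.92 CPM (median 5.19) in wild type and 5.04 to 125 (median 17.0) in *AcfC*. Its neighbour *E(spl)mdelta-HLH* had 0.996 to 3.35 (median 2.47) and 3.53 to 62.5 CPM (median 6.00). Embryos 5 and 6 were the 2 highest for *E(spl)mgamma-HLH*, whose groups overlapped, while those of *E(spl)mdelta-HLH* did not. The log2 fold changes were 2.92 (edgeR adjusted p = 0.0452) and 2.80 (adjusted p = 0.0541), and that of *E(spl)m7-HLH* was 0.69 (adjusted p = 0.0874). Without embryos 5 and 6 no gene of this list was called, and its median was 0.27.

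**Figure D2:**
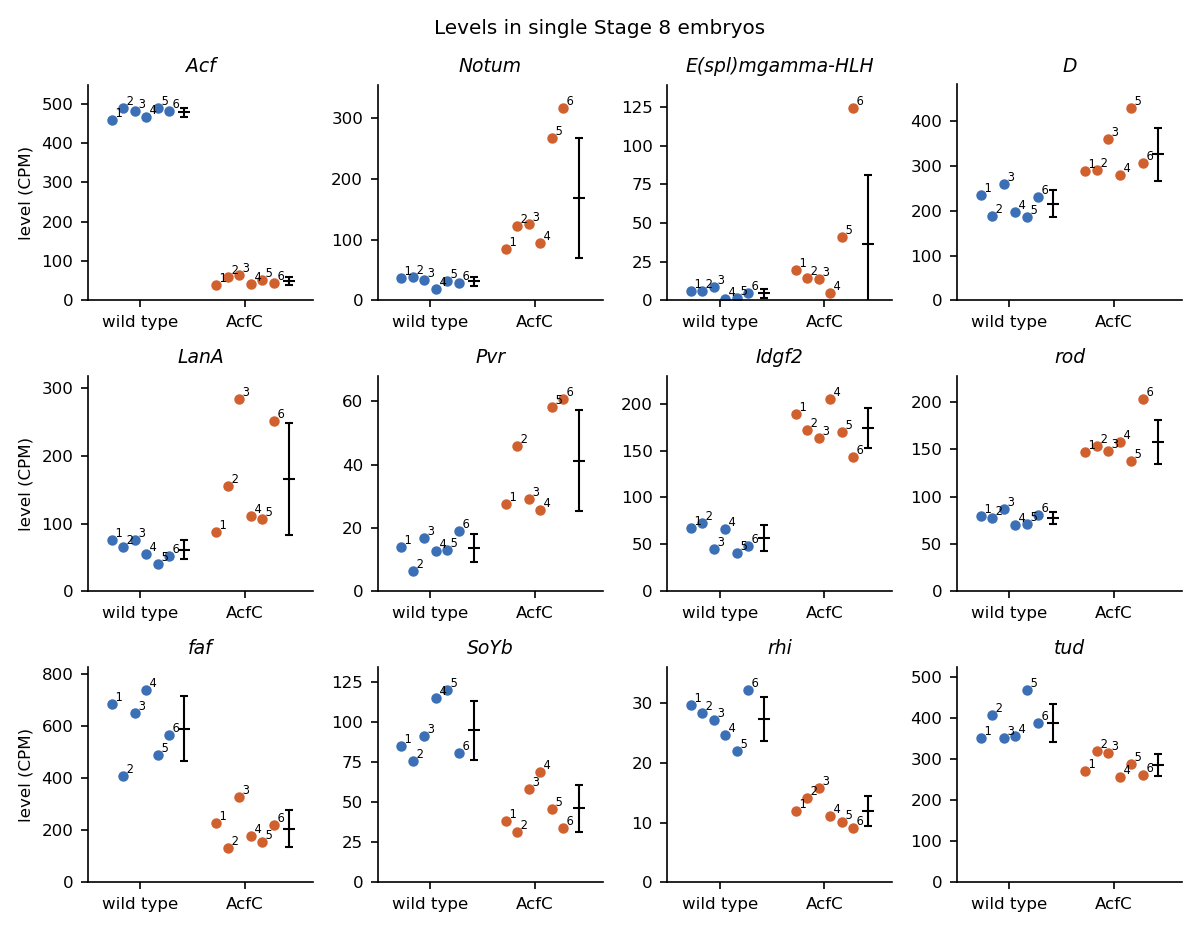
Levels of 12 genes in single Stage 8 embryos (CPM, linear axes from 0, wild type blue, *AcfC* orange, numbers are replicate numbers, black bars mean ± SD of 6 embryos). *Notum* and *E(spl)mgamma-HLH* are highest in *AcfC* embryos 5 and 6, whereas *Idgf2* (40.7 to 73.2 against 143 to 205.3 CPM) and *rhi* (21.9 to 32.2 against 9.03 to 15.8 CPM) separate the groups in every embryo.

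Of 14 Wnt antagonists and heparan sulfate modifiers 4 rose, 10 were not called and none fell (median log2 fold change 0.25). This is 28.6% called, against 4.28% of all genes, and 3 rose without embryos 5 and 6. *Notum* (3L), a secreted enzyme that inactivates Wnt proteins, had 19.2 to 37.9 CPM (median 32.6) in wild type and 84.7 to 317 (median 124) in *AcfC*, with embryos 5 and 6 highest and no overlap. Its log2 fold change was 2.42 (standard error 0.32, edgeR adjusted p = 0.00169) and 1.76 without embryos 5 and 6 (adjusted p = 0.000242). *Sulf1*, which trims sulfate from heparan sulfate, had 149 to 171 CPM (median 162) and 204.8 to 269 (median 231), a log2 fold change of 0.55 (edgeR adjusted p = 0.00201). *wntD*, a Wnt family member that restrains Dorsal signaling, had 53.7 to 88.2 CPM (median 73.2) and 99.4 to 149 (median 121), a log2 fold change of 0.77 (edgeR adjusted p = 0.0112). The groups of *Sulf1* and *wntD* did not overlap. Together with *Hs6st*, a heparan sulfate sulfotransferase (0.58, edgeR adjusted p = 0.0766), they were the 4 genes called. *wntD* is neither a Wnt antagonist nor a heparan sulfate modifier by this description, and it is also on the segment polarity list. This list, and those of the EGF receptor, matrix, septate junction, replication fork, chromosome segregation and transcription genes below, was written after values had been seen, so its counts are a description.

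In the EGF receptor pathway 3 of 14 tested genes rose and none fell (median 0.31, 21.4% called against 4.28% of all genes), with 2 called without embryos 5 and 6. Besides *vn* they were *spi* (*spitz*), the main activating ligand, and *pnt* (*pointed*), the ETS factor that carries out the response. *spi* had 306 to 368 CPM (median 342) in wild type and 384 to 437 (median 410) in *AcfC*, and *pnt* 110 to 139 (median 120) and 146 to 211 (median 175). Neither pair of groups overlapped. The log2 fold changes were 0.28 (edgeR adjusted p = 0.0351) and 0.52 (adjusted p = 0.0181). *Pvr*, the receptor of PDGF- and VEGF-related ligands that guides hemocytes, had 6.36 to 19.2 CPM (median 13.6) and 25.7 to 60.8 (median 37.5) with no overlap, which is 1.58 ± 0.27 (standard error) on the log2 scale (edgeR adjusted p = 0.00816). It was the only one of 12 tested hemocyte genes that was called (8.33%, against 4.28% of all genes).

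Of 17 tested genes of basement membrane and apical extracellular matrix, 6 rose, 11 were not called, none fell, and the median log2 fold change was 0.83. The share called was 35.3%, against 4.28% of all genes. Their summed level was 1027 to 1197 CPM in wild type and 1260 to 2040 in *AcfC*, and 4 genes of the list rose without embryos 5 and 6. *LanA*, the laminin alpha chain, had 41.2 to 76.4 CPM (median 60.7) in wild type and 88.3 to 285 (median 134) in *AcfC*. The groups did not overlap, and embryos 3 and 6 were highest. The log2 fold change of *LanA* was 1.44 (standard error 0.28, edgeR adjusted p = 0.0156). *mfas*, a fasciclin-domain protein, had 86.2 to 126 CPM (median 105) and 139 to 276 (median 175), again without overlap (0.84, edgeR adjusted p = 0.0149). *dpy* (*dumpy*), a giant protein that ties epithelia to the apical matrix, went from a median of 45.8 CPM to 84.4 (1.42, edgeR adjusted p = 0.0556), and *Ppn* (*papilin*), a basement membrane proteoglycan, from 0.891 to 5.45 CPM (2.94, edgeR adjusted p = 0.0291), with overlap in both. The remaining members called were *stl* and *nolo*.

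Of 19 tested septate junction genes 3 rose (2 without embryos 5 and 6), which is 15.8% called against 4.28% of all genes. The median of the list, 0.02, was close to that of all genes. *Nrg* (*neuroglian*), a cell adhesion molecule, had 111 to 154 CPM (median 135) in wild type and 172 to 270 (median 191) in *AcfC* without overlap (log2 fold change 0.60, edgeR adjusted p = 0.0161). *cora* (*coracle*), a cytoskeletal linker, had 17.9 to 36.1 CPM (median 25.9) and 35.1 to 92.4 (median 59.3) with slight overlap (1.13, edgeR adjusted p = 0.0206). The third was *Atpalpha*, the sodium pump subunit (0.34, edgeR adjusted p = 0.0509).

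**Figure D3:**
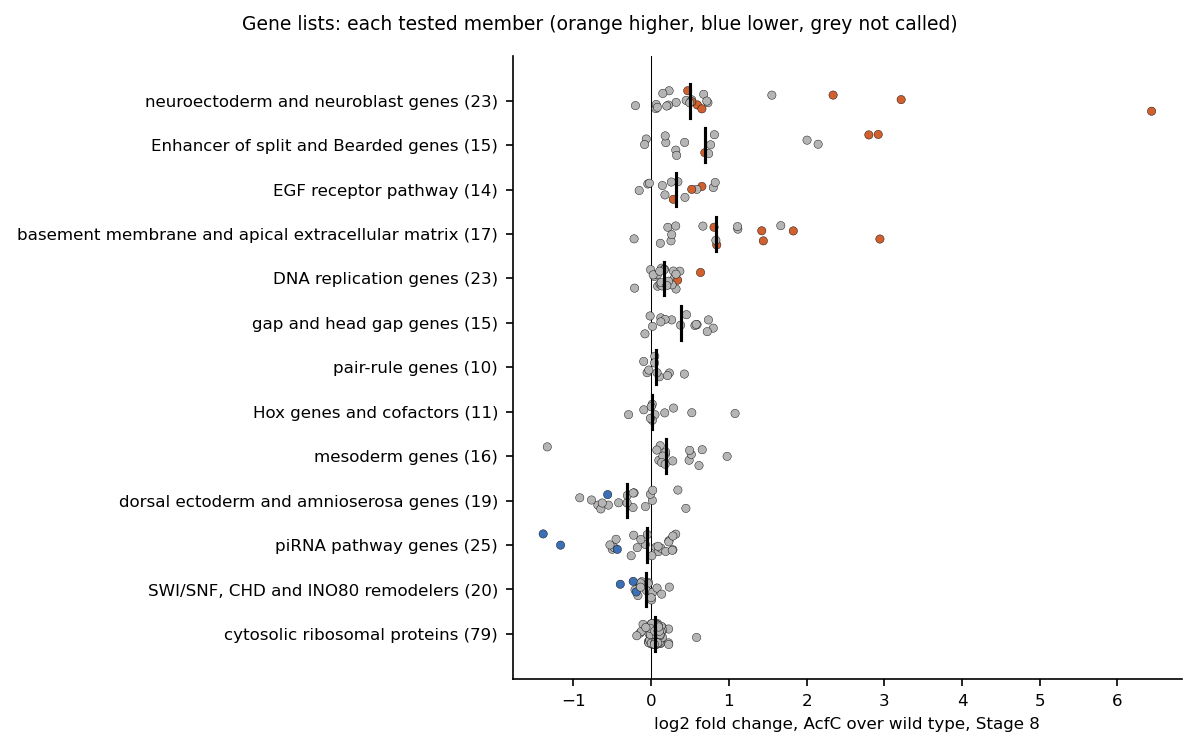
Log2 fold change of *AcfC* over wild type at Stage 8 for every tested member of 13 gene lists (1 point per gene, orange called higher, blue called lower, grey not called, black bar median of the list, number of tested genes in brackets, *Acf* left out). The neuroectoderm, Enhancer of split and matrix lists lie to the right of 0 with medians of 0.50, 0.69 and 0.83. The gap list, without a call, has a median of 0.38 and the dorsal ectoderm list −0.31, while the abundant ribosomal protein genes stay near 0. The matrix and EGF receptor lists were written after values had been seen.

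Among 23 DNA replication genes 2 rose, with and without embryos 5 and 6, and none fell (8.7% called, against 4.28% of all genes). Of the 23, 21 had a log2 fold change above 0 and the median was 0.17. Their summed level was 4669 to 5288 CPM in wild type and 5346 to 5913 in *AcfC*. *dpa*, a subunit of the MCM helicase, had 329 to 375 CPM (median 351) and 413 to 491 (median 436) with no overlap (0.34, edgeR adjusted p = 0.0124). *RnrL*, which makes deoxyribonucleotides, went from a median of 95.6 CPM to 151 (0.63, edgeR adjusted p = 0.0149), with overlap through 1 high wild-type embryo.

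5 of 17 replication fork factors rose (*RPA1*, *RfC4*, *PolE2*, *Claspin* and *dnk*, with log2 fold changes from 0.23 to 0.55), and none of these was called without embryos 5 and 6. Of 33 kinetochore, condensin, cohesin and spindle genes 6 rose and *Mad1*, a spindle checkpoint gene, fell (−0.28, edgeR adjusted p = 0.0878), and the median was 0.08. Without embryos 5 and 6, 4 rose and none fell. With all embryos 29.4% of the replication fork list and 21.2% of the kinetochore list were called, against 4.28% of all genes. The largest change was in *rod* (*rough deal*), a kinetochore protein of the checkpoint, with 69.7 to 87.0 CPM (median 78.6) in wild type and 137 to 203 (median 151) in *AcfC*. Its groups did not overlap, its log2 fold change was 1.02 (standard error 0.10, edgeR adjusted p = 0.000139), and it lies 0.21 Mb from *Acf*. *mars*, a spindle protein, had 157 to 198 CPM and 225 to 247 (0.37, edgeR adjusted p = 0.0147). General cell cycle regulators gave no call among 23 tested.

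The smallest p-value after *Acf* belonged to *Idgf2*, a secreted chitinase-like growth factor (2L from 16447330 to 16450508). It had 40.7 to 73.2 CPM (median 57.1) in wild type and 143 to 205.3 (median 171) in *AcfC*, which is 1.61 ± 0.15 (standard error) on the log2 scale (edgeR adjusted p = 8.81e-05). The neighbouring paralog *Idgf3* (2L from 16450907 to 16455194) went from a median of 5.04 CPM to 14.6 (1.59, edgeR adjusted p = 0.0167), with slight overlap. In other embryos, at Stage 3 before ZGA, the mean level of *Idgf2* was 37.1 CPM in wild type (n = 6) and 119 in *AcfC* (n = 5). At Stage 3 *Idgf3* had means of 9.66 and 29.2 CPM. With all 6 *AcfC* embryos of Stage 3 the *AcfC* means were 116 and 29.6 CPM. Neither Stage 3 difference was tested.

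Other genes with a large rise and no overlap were mostly low in wild type. *CG3097*, annotated by number, had 4.27 to 15.8 CPM (median 10.8) in wild type and 35.5 to 85.8 (median 59.4) in *AcfC* (log2 fold change 2.42, edgeR adjusted p = 0.000808). *HGTX*, a homeobox gene of the nervous system, had 0.853 to 5.03 CPM (median 4.13) and 6.51 to 49.2 (median 9.76), a log2 fold change of 2.42 (edgeR adjusted p = 0.0358). *CG32625* rose by 1.97, *CG33494* by 2.45, *tbc* by 2.49 and *Rcd2*, needed for centriole duplication, by 2.55 on the log2 scale, with edgeR adjusted p between 0.00285 and 0.0269. *Corin*, a serine protease gene, rose by 2.20 (edgeR adjusted p = 0.00403). Apart from *CG32625*, these had at most 85.8 CPM in any embryo. The largest rises without overlap among genes averaging at least 10 normalized counts were those of *CG34353* and *jdp*, both on 3R like *Acf*. With 1 embryo left out in turn, their log2 fold changes were 4.26 to 4.91 and 3.67 to 4.39. Both were called in all 12 fits.

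The most abundant genes that rose changed little in proportion. *Df31*, a nucleosome-binding protein that loosens chromatin, had 3783 to 4044 CPM (median 3927) in wild type and 4226 to 4696 (median 4418) in *AcfC*, a log2 fold change of 0.18 (edgeR adjusted p = 0.0457). *Bacc* had 1303 to 1658 CPM (median 1400) and 1684 to 1966 (median 1834), a log2 fold change of 0.35 (edgeR adjusted p = 0.017). In both genes the groups did not overlap. *yem* (*yemanuclein*), a partner of the histone H3.3 chaperone HIRA, was the only one of 14 histone variant and chaperone genes called, with 42.8 to 51.5 CPM and 61.3 to 80.6 (0.53, edgeR adjusted p = 0.00648). The share called in that list was 7.14%, against 4.28% of all genes.

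*faf* (*fat facets*), a deubiquitinase needed for germ cell and embryo development, had 411 to 741 CPM (median 607) in wild type and 132 to 327 (median 200) in *AcfC*. All *AcfC* embryos were lower, and the log2 fold change was −1.51 (standard error 0.20, edgeR adjusted p = 0.00169). *faf* ends 3.3 kb before *Acf* and shares exon sequence with *Mccc1*, and its mean level at Stage 3 was 1164 CPM in wild type and 1173 in *AcfC*. Besides *Acf*, the falls without overlap of *CG1503*, *CG31517* and *CG7920* were in general larger. With 1 embryo left out in turn, their log2 fold changes were −3.7 to −2.9, −2.2 to −1.8 and −1.7 to −1.4, called in all 12 fits.

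The piRNA pathway silences transposons in the germline. Of 25 tested members 3 fell and none rose, against 2.05% of all genes that fell, and the list median was −0.05. *rhi* (*rhino*), an HP1-related protein that marks piRNA clusters, had 21.9 to 32.2 CPM (median 27.8) in wild type and 9.03 to 15.8 (median 11.5) in *AcfC* (log2 fold change −1.17, standard error 0.15, edgeR adjusted p = 0.00151). *tud* (*tudor*), a germ plasm scaffold, had 351 to 469 CPM (median 371) and 256 to 320 (median 281), a log2 fold change of −0.44 (edgeR adjusted p = 0.0198). Neither pair of groups overlapped. *BoYb*, a Tudor-domain helicase of the pathway, went from a median of 32.7 CPM to 10.5 with overlap (−1.39, edgeR adjusted p = 0.0514). Its relative *SoYb*, which was not on the list, had 75.8 to 120 CPM (median 88.5) and 31.2 to 69.1 (median 42.3) without overlap (−1.05, edgeR adjusted p = 0.0109).

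The Stage 3 levels of these RNAs differed in pattern. *rhi* had a mean of 35.3 CPM in wild type and 15.9 in *AcfC* at Stage 3, and *tud* 701 and 583. *SoYb* had 185 and 171, and *BoYb* 91.7 and 84.2. With all 6 *AcfC* embryos of Stage 3 the *AcfC* means were 15.1 CPM for *rhi*, 581 for *tud*, 168 for *SoYb* and 79.8 for *BoYb*. The core factors *piwi*, *aub* and *vas* were not called at Stage 8, with log2 fold changes of 0.23, −0.08 and 0.06. Without embryos 5 and 6, *rhi* and *tud* were called and *BoYb* was not (adjusted p = 0.142).

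Of 20 SWI/SNF, CHD and INO80 genes 3 fell and none rose, against 2.05% of all genes that fell. The list median was −0.07. *kis* (*kismet*), a CHD remodeler, had 5359 to 6020 CPM (median 5512) in wild type and 4493 to 5167 (median 4986) in *AcfC* without overlap (−0.19, edgeR adjusted p = 0.0621). *rept* (*reptin*), an AAA ATPase of the INO80 and Tip60 complexes, went from a median of 117 CPM to 88.4 (−0.40, edgeR adjusted p = 0.0457), and its partner *pont* (*pontin*) from 178 to 149 (−0.23, edgeR adjusted p = 0.0937). Without embryos 5 and 6, only *kis* among these was called. *Sfmbt* was the only one of 21 Polycomb and Trithorax genes called (−0.32, edgeR adjusted p = 0.093). This share, 4.76%, was near the 4.28% of all genes. None of the 21 was called without embryos 5 and 6, and 15 heterochromatin genes gave no call.

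Among 41 genes of general transcription, elongation and RNA 3′ processing 10 fell and none rose, with a median of −0.16. The share called was 24.4%, against 4.28% of all genes. Their summed level was 7972 to 8601 CPM in wild type and 7013 to 7507 in *AcfC*. The largest change was in *IntS3*, an Integrator subunit, with 159 to 231 CPM (median 173) and 74.8 to 130 (median 98.0), a log2 fold change of −0.86 (edgeR adjusted p = 0.00285). *Set2*, the H3K36 methyltransferase, had 298 to 471 CPM (median 334) and 204 to 250 (median 241), a log2 fold change of −0.61 (edgeR adjusted p = 0.0107). *Taf1*, the scaffold of TFIID, had 691 to 828 CPM (median 736) and 478 to 682 (median 569), a log2 fold change of −0.37 (edgeR adjusted p = 0.046). In all 3 genes the groups did not overlap. Without embryos 5 and 6, 5 of the 41 fell.

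Of 44 tested glutathione S-transferase and UDP-glucuronosyltransferase genes 4 rose and 4 fell (18.2% called, against 4.28% of all genes), and 2 rose and 2 fell without embryos 5 and 6. *GstS1* had 102 to 240 CPM (median 204) in wild type and 63.9 to 109 (median 99.9) in *AcfC*, which is −1.06 ± 0.19 (standard error) on the log2 scale (edgeR adjusted p = 0.00993). *GstE1*, which shares exon sequence with *GstE10*, had 60.8 to 83.0 CPM (median 74.8) and 24.5 to 53.8 (median 42.7), a log2 fold change of −0.85 (edgeR adjusted p = 0.0228). *GstE11* rose from a median of 5.32 to 9.68 CPM (0.81, edgeR adjusted p = 0.0206). These enzymes conjugate glutathione to toxic molecules, and several lie in gene clusters of similar sequence, so that shared reads may blur single members.

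Few genes of the zygotic body plan fell. *tld* (*tolloid*), a protease that releases the BMP ligand Dpp, went from a median of 148 CPM to 95.3 with overlap (−0.56, edgeR adjusted p = 0.0701). It was the only one of 19 dorsal ectoderm and amnioserosa genes called (5.26%, near the 4.28% of all genes), and the list median was −0.31. *dib* (*disembodied*), a P450 enzyme of ecdysone synthesis, had 127 to 195 CPM (median 160) and 103 to 137 (median 107), a log2 fold change of −0.47 (edgeR adjusted p = 0.0467). The abundant *Svil* (−0.31), *hyd* (−0.23), *btsz* (−0.42) and *kmr* (−0.42) fell with edgeR adjusted p between 0.0442 and 0.0911.

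The genes that position cells along the axes were not called. Gap and head gap genes (15 tested, median log2 fold change 0.38), pair-rule genes (10, 0.06), Hox genes and cofactors (11, 0.01) and mesoderm genes (16, 0.19) gave no call. Among 15 segment polarity genes only *wntD* rose (6.67% called, against 4.28% of all genes). There was no call in 9 cellularization genes, 26 maternal determinants, 79 cytosolic and 70 mitochondrial ribosomal protein genes, 37 cuticle genes or 14 heat shock genes. Follicle cell genes of eggshell and yolk summed to 2.56 to 20.2 CPM in wild type and 6.1 to 20.7 in *AcfC*, with 0 of 8 tested genes called.

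Calls were divided by the level of the RNA before ZGA, using the mean level at Stage 3 in 6 wild-type embryos that played no part in the Stage 8 test. Among 3117 genes under 1 CPM at Stage 3, which are mainly read from the zygotic genome at Stage 8, 98 were higher and 12 lower in *AcfC* (3.14% and 0.385%), with a median log2 fold change of 0.24. Among 5168 genes over 20 CPM, whose RNA the mother supplies, 81 were higher and 160 lower (1.57% and 3.10%), with a median of −0.03. Whether their RNA at Stage 8 was still maternal, newly made or both was not tested. The 1163 genes between them split into 31 higher and 22 lower. Without *AcfC* embryos 5 and 6 the zygotic class had 68 higher and 15 lower genes, and its median was 0.04. Low genes can pass the filter through the group in which they are high. When at least 10 normalized counts on average over all 12 embryos were required, 70 of 1180 genes of this class were higher and 8 lower. That average also includes the group in which a gene is high, so this limit does not remove such genes. The difference between the classes was not tested.

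**Figure D4:**
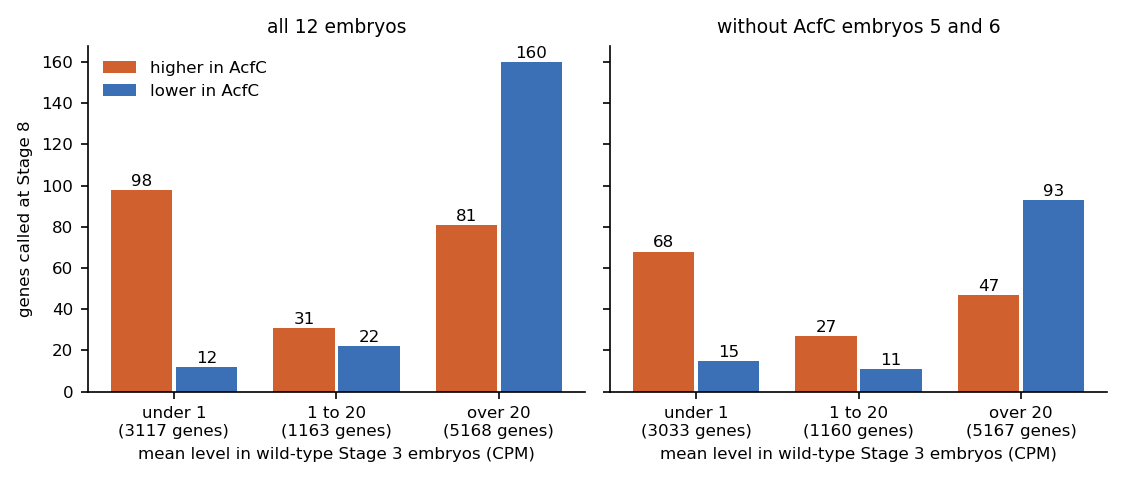
Number of genes called higher (orange) or lower (blue) in *AcfC* at Stage 8, by the mean level of the gene in 6 wild-type Stage 3 embryos, with all 12 embryos (left) and without *AcfC* embryos 5 and 6 (right). Genes under 1 CPM at Stage 3 are mostly higher (98 against 12) and those over 20 CPM mostly lower (81 against 160).

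Among the 5 large chromosome arms, calls ranged from 1.25% higher and 1.06% lower on X to 2.68% higher on 2L and 2.56% lower on 3L. On the small chromosome 4, 0 of 78 genes were higher and 1 was lower. Of 83 tested genes within 1 Mb of *Acf*, 5 were higher and 5 lower (6.02% each), besides *Acf* itself. Over all genes tested, 2.22% were higher and 2.05% lower. On 3R the shares were 3.41% and 2.27% of 176 genes at 1 to 3 Mb, and 2.21% and 2.31% of 2039 genes farther away. *cindr*, an adaptor of the actin cytoskeleton 0.97 Mb away, had 114.8 to 162 CPM (median 152) in wild type and 206 to 311 (median 257) in *AcfC* with no overlap (0.79, edgeR adjusted p = 0.00151). *PNPase*, a mitochondrial RNA exonuclease, had 18.2 to 21.9 CPM (median 20.0) and 4.54 to 10.6 (median 8.59), a log2 fold change of −1.28 (edgeR adjusted p = 0.00285). *PNPase* shares exon sequence with *Gcn2*, which was also lower (−0.65), and reads of the 2 genes cannot be told apart without strand. *rod*, *CG1792*, *stops* and *dj-1beta* were the other higher genes, and *faf*, *FeCH* and *heph* the other lower ones. Effects of the deletion and of sequence linked to it cannot be told apart for these genes.

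**Figure D5:**
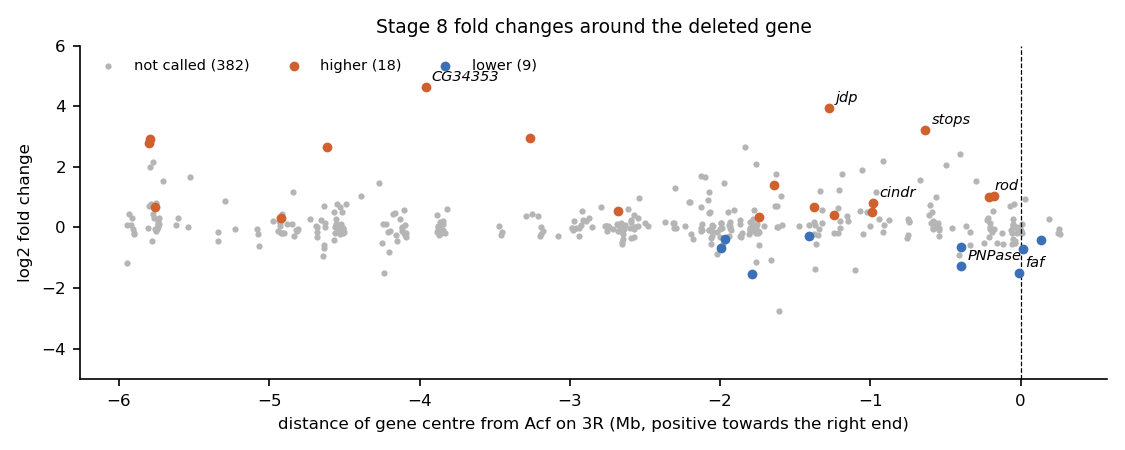
Log2 fold change of genes on 3R against their distance from *Acf* (Mb, centre to centre, 1 point per tested gene up to 6 Mb to the left, orange higher, blue lower, grey not called, dashed line *Acf*). Within 1 Mb, 5 higher and 5 lower genes lie among 83 (6.02% each, against 2.22% and 2.05% of all genes tested).

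Several calls near the cutoff depended on single embryos. With 1 of the 12 embryos left out in turn, *D*, *sca*, *Notum*, *Pvr*, *LanA*, *Idgf2*, *rod*, *faf*, *rhi*, *tud* and *SoYb* were called in all 12 fits. *vn* was lost without wild type 4 (log2 fold change 0.53 to 0.74 over all fits). *E(spl)mdelta-HLH* was lost without wild type 1 (2.78), 4 (2.65) or 5 (2.68), and *E(spl)m7-HLH* was called in 5 fits (0.48 to 0.78). *Df31* was lost without wild type 1 or 4 (0.16 to 0.18), *BoYb* without wild type 4 or *AcfC* 2 (−1.79 to −1.20), *rept* without wild type 4 (−0.44 to −0.34) and *hyd* without wild type 6 (−0.26 to −0.21). *Svil* was called in 6 fits (−0.36 to −0.27), *kmr* in 4 (−0.53 to −0.37) and *btsz* in 2 (−0.51 to −0.35). *dpy* was called in 7 fits (1.00 to 1.58), *kis* in 6 (−0.22 to −0.17), *tld* in 5 (−0.67 to −0.49), *Hs6st* in 4 (0.48 to 0.66), *pont* in 2 (−0.26 to −0.20) and *Sfmbt* in 1 (−0.37 to −0.26). No direction turned in these fits.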

How the data were processed

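Single-embryo RNA was depleted of rRNA and made into nondirectional libraries. The authors mapped paired-end reads to the *Drosophila* genome (dmel r6.09) with STAR 2.5.0a, and deposited raw counts of reads per gene, without normalization. Biotypes and positions came from the Ensembl annotation of BDGP6, the same assembly, which lists 17155 of the 17370 genes. Groups and replicate numbers came from the sample labels.

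The stages were fitted separately, as in the study. The 12 Stage 8 embryos were compared by edgeR 4.0.16 (R 4.3.3; quasi-likelihood, two-sided) with TMM normalization, a prior count of 0.125, Benjamini-Hochberg adjustment over all genes tested and a cutoff of 0.1. DESeq2 1.42.0 was an alternative, beside other filters and scalings, *roX* or *Sxl* level as a covariate, and leaving out embryos. Further fits held the replicate number, or the split into replicates 1 to 3 and 4 to 6, in the model. Stage 3 levels used 6 wild-type and 5 *AcfC* embryos, because the study left out 1 *AcfC* embryo for staging. Its number is not given in the methods, and it was taken to be replicate 2, which is uncertain; means with all 6 are given as well. The test was checked on simulated counts.

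The genes compared, the gene lists (33 lists and 17 families) and the tests were chosen with earlier results of these data known, and 8 further lists were written after values were seen. Lists are described by counts and medians without a set test. Named genes were *Acf*, the 12 largest changes in each direction averaging at least 10 normalized counts and without overlap, the 6 most abundant called genes in each direction, up to 4 called and 2 abundant members per list, called genes within 1 Mb of *Acf*, and markers of sex. Promoter motifs were not analysed here. Nothing in the labels says that the embryos came from separate collections, so that p-values measure the spread between these embryos.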

Additional observations from a re-analysis of the deposited data

Results flagged for a closer look

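In 108 groups of 6 embryos (the named genes with levels by embryo, each in wild type and in *AcfC*), the highest or lowest embryo stood apart from the other 5 in 11, measured as its gap to the nearest embryo over the range of the group. Chance flags about 1 in 20 groups. 6 of the 11 were *AcfC* embryo 6, which had 47.9 CPM of *wor* (next embryo 9.76), 92.1 of *scrt* (21.8), 125 of *E(spl)mgamma-HLH* (41.3), 62.5 of *E(spl)mdelta-HLH* (15.2), 203 of *rod* (158) and 194 of *RnrL* (156). In wild type, embryo 3 had 57.5 CPM of *E(spl)m7-HLH* (next 44.7) and 0 of *stops* (0.58), embryo 4 had 114.8 of *cindr* (147), and embryo 5 had 137 of *RnrL* (99.7) and 6020 of *kis* (5554). The cause was not tested.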

How the results depend on the processing

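Against 404 calls (210 higher, 194 lower), DESeq2 gave 623 (344 higher), a cutoff of 0.05 gave 178 (96 and 82), one fit of the 4 groups with Stage 3 gave 908 (422 and 486), and leaving out *AcfC* embryos 5 and 6 gave 261 (119 lower), of which 203 were shared with the full set in the same direction. Replicates 1 to 3 alone gave 51 calls (34 and 17) and replicates 4 to 6 alone 2 (0 and 2), with 3 embryos per group. With this split of the replicate numbers as a covariate, 325 genes were called (167 and 158), 316 of them shared in the same direction. Leaving out 1 embryo gave 193 to 449 calls (101 to 258 higher, 92 to 213 lower), with 218 without wild type 1, 268 without wild type 3, 193 without wild type 4, 247 without wild type 6 and 245 without *AcfC* 2. Other scalings, filters and all gene classes gave 360 to 401 calls. The *Sxl* level as a covariate, chosen after seeing the data, gave 515 calls, 398 of them shared. The summed *roX* level was 1426 to 1649 CPM in the embryos with low *Sxl* and high *msl-2*, and 1670 to 3358 in the others. The cause of the differences in calls was not tested.

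Embryos with the same replicate number did not deviate together (correlations from −0.07 to 0.19 over 6 pairs), and each is a different animal. With the replicate number as a block, 252 genes were called (129 and 123), 220 of them shared in the same direction. With the *roX* level as a covariate, 304 genes were called (174 and 130), 249 of them shared. None of the 105 called genes that the rule names turned its direction under any alternative that could test it. Depth limits genes of a few counts per embryo, such as *wor*. Of 103 called named genes that could be tested without *AcfC* embryos 5 and 6, 39 were then not called.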

Other observations

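Some other genes that were called, picked after their values were seen, belong to pathways not described above. Both partners of the TSC complex, which restrains growth through TOR, were lower in *AcfC*. *Tsc1* had 75.8 to 137 CPM (median 85.7) in wild type and 41.9 to 62.5 (median 53.5) in *AcfC* without overlap (log2 fold change −0.81, edgeR adjusted p = 0.0107), and *gig*, which encodes TSC2, went from a median of 238 to 184 CPM (−0.36, edgeR adjusted p = 0.0529). The scavenger receptors *Sr-CI* and *emp* were higher (1.67 and 1.63, edgeR adjusted p = 0.0541 and 0.0531), each under 20 CPM in every embryo. *klu*, a zinc finger factor of neural lineages, rose from a median of 3.68 to 13.0 CPM (1.75, edgeR adjusted p = 0.052). With 1 embryo left out in turn, *Tsc1* was called in all 12 fits, *klu* in 11, *Sr-CI* in 9, and *gig* and *emp* in 8 each.

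The median log2 fold change of X-linked genes was 0.05 over all embryos, −0.19 among replicates 1 to 3 and 0.30 among replicates 4 to 6. Embryos with high *Sxl* numbered 3 wild type and 1 *AcfC* in the first set and 1 wild type and 3 *AcfC* in the second. With the *Sxl* level as a covariate, 67 of 1597 tested X-linked genes were higher and 23 lower, against 20 (1.25%) and 17 (1.06%) without it. Over all genes tested, 2.98% were higher and 2.47% lower with the covariate, and 2.22% and 2.05% without it.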
